A study of Mus musculus with 48 samples.

Results

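The lysate of 4T1 cells that express the deadenylase-dead CNOT7 mutant D40A was compared with the lysate of 4T1 cells that carry the control vector. The members are 9 sequenced input libraries of the 48 in the series, chosen by their labels: 4 D40A libraries (replicates 6, 8, 9 and 10) and 5 vector libraries (replicates 6 to 10). 4T1 is a mouse mammary carcinoma line, labelled here as strain BALB/cfC3H. The control cells carried the vector 8166-M24-658, and the D40A cells a FLAG-tagged human CNOT7 cDNA with the D40A change, delivered by lentivirus under a murine Pol2 promoter. Cells of both kinds were transduced cultures selected with blasticidin, and they kept their own Cnot7. Whether the cultures were pools or clones is not given in the sources used here. The input is the total RNA of a small part of the lysate set aside before the FLAG immunoprecipitation, depleted of ribosomal RNA and sequenced with a directional kit. The other input groups, used below only for comparison, expressed unaltered CNOT7, M141R (which lacks the contact with CNOT1) or E247A/Y260A (which lacks the contact with TOB1). The labels do not say whether replicates were separate cultures. Where the replicate number is a block in the fit, p-values rest on the spread left after it is taken out. Other p-values rest on the spread between these samples. Either spread may be technical.

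CNOT7 is a catalytic subunit of the CCR4-NOT complex, which shortens the poly(A) tails of cytoplasmic mRNAs and so prepares them for decapping and decay. D40A alters a catalytic residue, so that the protein is made but does not deadenylate. Mitochondrial RNAs are made in another compartment: both strands of the circular genome are transcribed as long precursors, which are cut at the tRNAs that lie between the coding genes. The strand called plus here carries most of the mRNA genes and both rRNA genes, and the minus strand carries mt-Nd6 and 8 tRNA genes.

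The data are counts per gene model, and levels are given as CPM, which is the count scaled to a common library total. The 9 libraries held between 386854 and 647077 counts, and 2810 of 26899 gene models passed the filter on low counts and were tested. The strand on which reads were counted is not given in the sources used here, and it bears on what a gene name means in these data. Actb, the cytoplasmic actin gene, had 0 to 38 counts in the 9 libraries and Vim, the vimentin gene, 0 to 1. B2m had 7 to 16 counts while Patl2, a gene model that lies opposite to it, had 6006 to 10134, and Ppib had 6 to 39 counts while Snx22 on its other strand had 1431 to 5941. Of the 2782 tested models found in the annotation, 2369 (85.2%) overlap a gene on the other strand. A value below is therefore the count given to a named gene model, and whether its reads came from that gene or from the opposite strand was not tested. Of 8 mammary epithelial markers, 3 had enough counts to be tested (Epcam 4 to 27 counts, Cdh1 7 to 28, Krt7 7 to 47), and Krt14 and Krt5 were at 0 in every library. The 6 fibroblast markers summed to at most 4 counts per library, the 5 leukocyte markers to at most 11 and the 4 endothelial markers to at most 17.

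In the D40A lysate 14 gene models were higher and 1 was lower than in the vector lysate, and 13 of the 14 were mitochondrially encoded. They comprised 6 mRNA genes of oxidative phosphorylation and 7 of the 8 tRNA genes of the minus strand, with log2 differences from 0.97 for mt-Nd2 to 1.88 for mt-Te. Both mitochondrial rRNA genes were close to 0 (mt-Rnr1 -0.08 ± 0.28 and mt-Rnr2 -0.05 ± 0.23, SE). The test was edgeR's quasi-likelihood test on the counts, with the replicate number as a block and Benjamini-Hochberg adjustment over all 2810 models. The SE of a fitted difference is its absolute value divided by the square root of the F value of this test. It rests on a spread partly shared across models, so it can understate how far the pairs of a single model differ. At an adjusted p under 0.05 it called 0.498% of all models higher and 0.0356% lower, against 13 of the 25 mitochondrial models tested. Over all tested models the median log2 difference was -0.01, and over the 25 mitochondrial models it was 1.03. Vector replicate 7 has no D40A partner and adds no information on the difference in this fit. Without the block no model was called in either direction, while 15 were higher and 14 lower before adjustment (p under 0.05), and the mitochondrial median was 0.99. With the block, scaling by library size alone gave 6 higher, DESeq2 gave 4, and a minimum of 10 counts in every library gave 3, all of them mitochondrial. A fit of all 24 input libraries, also with the block, called no model in either direction.

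**Figure D1:**
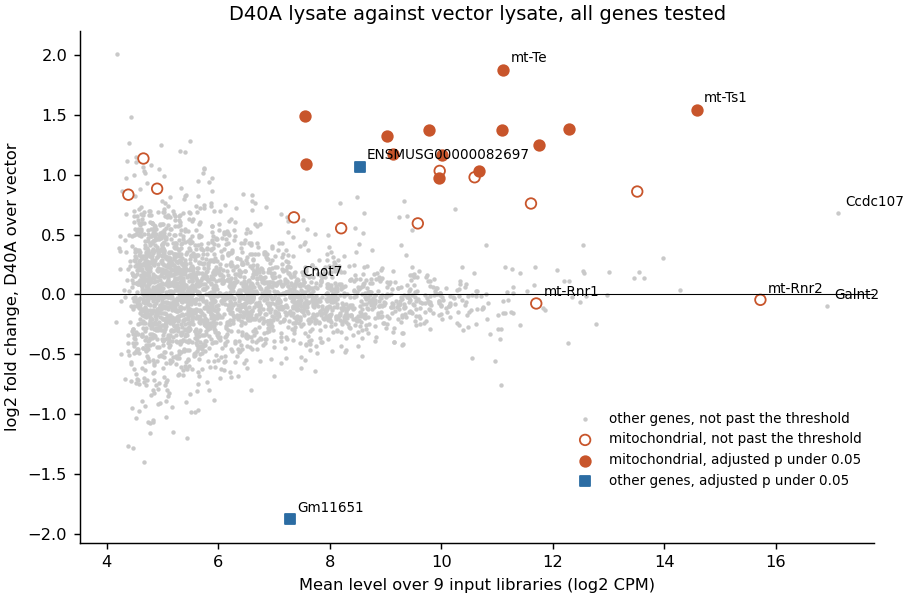
Each point is 1 of the 2810 tested gene models, placed by its mean level over the 9 input libraries (log2 CPM) and its fitted log2 fold change in D40A over vector. Filled symbols passed the adjusted threshold of 0.05: 13 mitochondrial models and ENSMUSG00000082697 lie above 0 and Gm11651 lies below it, while mt-Rnr1 and mt-Rnr2 lie near 0.

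The mitochondrial difference varied between replicate numbers and was largest in replicate 6. Within the 4 pairs of libraries that share a number, the median log2 difference of the 25 mitochondrial models was 2.02 in replicate 6, 0.40 in replicate 8, 0.40 in replicate 9 and 1.26 in replicate 10. Of the 25 models, 23, 17, 23 and 25 were higher in D40A in these pairs. In vector replicate 6 the mitochondrial share of counts was 4.42%, and in the other vector libraries it was 8.71% to 13.3%. In the D40A libraries it was 7.34% in replicate 6 and 11.6% to 15.5% in the others, so the groups overlap. With both replicate 6 libraries left out, 8 models were higher and 1 was lower, all 8 higher ones were mitochondrial, and the mitochondrial median was 0.66. With vector replicate 10 left out 3 models were higher, 2 of them mitochondrial, with a mitochondrial median of 0.99, and with D40A replicate 10 left out 7 were higher, 5 of them mitochondrial. With D40A replicate 6 left out 9 were higher, 8 of them mitochondrial.

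The mitochondrial mRNA genes of the plus strand encode subunits of complexes I, III, IV and V of oxidative phosphorylation, and all 11 in the table were tested. Of these 6 rose and none fell, and their median log2 difference was 1.03. The 6 that rose were all subunits of complex I (mt-Nd1, mt-Nd2, mt-Nd4, mt-Nd5) or of the ATP synthase, complex V (mt-Atp6, mt-Atp8). The complex IV genes were not past the threshold, with 0.76 ± 0.27 for mt-Co1 (adjusted p = 0.363), 0.59 ± 0.24 for mt-Co2 (0.409) and 1.03 ± 0.27 for mt-Co3 (0.0952). Nor were mt-Cytb of complex III, at 0.98 ± 0.26 (adjusted p = 0.114), or mt-Nd3, at 0.55 ± 0.17 (0.220). Pair 6 differed most for mt-Co1, mt-Co2, mt-Co3 and mt-Cytb, by 2.56, 1.74, 2.67 and 2.68. In pair 8 these same models were lower in D40A, while mt-Nd3 was lower in pair 9 only. Whether the genes of one complex differed from those of another was not tested.

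The mt-Nd5 model, the largest of the complex I mRNA genes, had 5150, 3038, 2020 and 2594 counts in D40A replicates 6, 8, 9 and 10. In vector replicates 6 to 10 it had 680, 2228, 1697, 1820 and 1819 counts. Its level was 7397 ± 1237 CPM in D40A (SD, n = 4) and 3076 ± 1231 CPM in vector (SD, n = 5), and every D40A library was above every vector library. The log2 difference was 1.38 ± 0.25 (SE, adjusted p = 0.00232). Groups that do not overlap in TMM-scaled CPM, with D40A higher, were seen in 7 of all 2810 models (0.249%), and 3 of the 7 were mt-Nd5, mt-Atp6 and mt-Nd4. Scaled by library size alone, the groups stayed apart for mt-Nd5 and overlapped for mt-Atp6 and mt-Nd4. For mt-Atp6, the membrane subunit that forms part of the proton path, counts were 787, 245, 168 and 267 in D40A and 133, 332, 193, 168 and 179 in vector, with levels of 806 ± 400 and 362 ± 90.8 CPM. The difference was 1.18 ± 0.23 (adjusted p = 0.00587). The short overlapping model mt-Atp8 had 341, 84, 66 and 60 counts in D40A and 16, 72, 70, 70 and 36 in vector, and its difference of 1.49 ± 0.35 (adjusted p = 0.0444) was 4.21 in pair 6 and between 0.31 and 1.44 in the others. Outside replicate 6 its counts overlap between the groups.

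For mt-Nd1 the difference was 1.17 ± 0.23 (adjusted p = 0.00756), with levels of 1477 ± 469 CPM in D40A and 684 ± 305 CPM in vector. For mt-Nd4 it was 1.03 ± 0.23 (adjusted p = 0.0273), and pair 9 differed by only 0.16 against 2.38 in pair 6. The mt-Nd2 model, named because it passed the threshold, had 484, 474, 547 and 555 counts in D40A and 117, 478, 436, 568 and 348 in vector. Its difference was 0.97 ± 0.21 (adjusted p = 0.0208). D40A was higher in all 4 pairs for each of mt-Nd1, mt-Nd2 and mt-Nd4, which the rule for naming required of mt-Nd1 and mt-Nd4. Over all models 7.12% were higher in all 4 pairs.

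**Figure D2:**
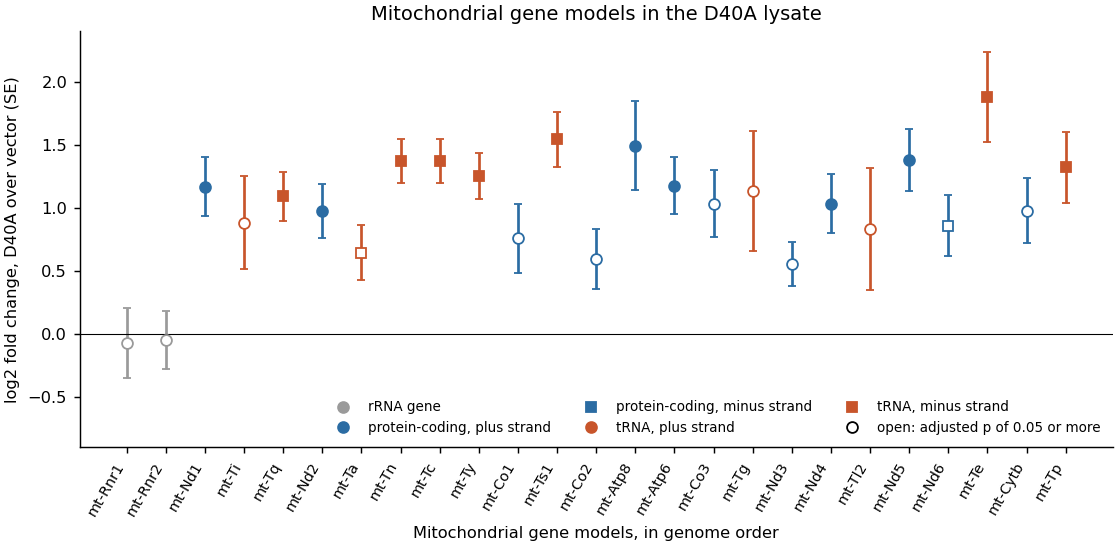
Fitted log2 fold change for the 25 tested mitochondrial gene models, in their order along the genome, in D40A over vector input (4 and 5 libraries). Bars give the standard error derived from the F value of the test, which can understate the spread between pairs. Filled symbols passed the adjusted threshold of 0.05: 6 mRNA genes of the plus strand and 7 tRNA genes of the minus strand, while both rRNA genes lie near 0.

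The other group that rose was the minus-strand tRNA genes, which decode glutamine (mt-Tq), asparagine (mt-Tn), cysteine (mt-Tc), tyrosine (mt-Ty), serine (mt-Ts1), glutamate (mt-Te) and proline (mt-Tp). The remaining one, mt-Ta for alanine, was at 0.64 ± 0.22 (adjusted p = 0.288). The arm that holds the anticodon is printed for the 7 that rose, because it identifies the tRNA and these genes are the largest class among the calls. Each is read on the gene's own strand from the GENCODE M21 transcript (GRCm38), with the anticodon in capitals in the middle of a loop of 7 bases between the strands of a stem of 5 pairs.
mt-Tq: gagaattTTGaattctt
mt-Tn: tttagctGTTaactaaa
mt-Tc: tcgaattGCAaattcga
mt-Ty: ttagactGTAaatctaa
mt-Ts1: attggctTGAaaccaat
mt-Te: atgatttTTCatgtcat
mt-Tp: ccagcttTGGgtgctgg
All 5 stem positions of each arm can pair, counting G with T as a pair. On chromosome M the genes lie at 3772 to 3842 (mt-Tq), 5089 to 5159 (mt-Tn), 5192 to 5257 (mt-Tc), 5260 to 5326 (mt-Ty), 6870 to 6938 (mt-Ts1), 14071 to 14139 (mt-Te) and 15356 to 15422 (mt-Tp), all on the minus strand. The 3 genes mt-Tn, mt-Tc and mt-Ty follow one another, and mt-Ts1 overlaps the end of mt-Co1 on the other strand.

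The mt-Ts1 model was the most counted of the 7. It had 4153, 14405, 17098 and 15862 counts in D40A replicates 6, 8, 9 and 10 and 802, 11351, 4858, 14416 and 9228 in vector replicates 6 to 10. Its level was 35191 ± 22079 CPM in D40A and 15891 ± 13182 CPM in vector, so the groups overlap. Within the pairs D40A was higher by 2.35, 1.63, 0.65 and 1.54 on the log2 scale, where the rule for naming required 1 sign in all pairs. The fitted difference was 1.54 ± 0.22 (adjusted p = 1.07e-04). In D40A this model alone held 0.712% to 4.42% of all counts of a library.

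The mt-Te model had 716, 2081, 1403 and 1032 counts in D40A and 22, 646, 566, 1361 and 742 in vector. Vector replicate 6 was far below the other vector libraries, and the difference of 1.88 ± 0.35 (adjusted p = 0.00435) was 4.87 in pair 6 against 0.44 in pair 9. Leaving out single libraries moved it between 1.20 and 2.46. The neighbours mt-Tc and mt-Ty varied less between pairs, with 0.83 to 1.68 and 0.65 to 1.55, and fitted differences of 1.37 ± 0.18 (adjusted p = 2.66e-05) and 1.25 ± 0.18 (1.07e-04). For mt-Tc the counts were 514, 1070, 1531 and 1658 in D40A and 209, 805, 347, 1136 and 876 in vector.

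The mt-Tn model had 28, 107, 852 and 758 counts in D40A and 7, 373, 49, 458 and 484 in vector. Its level differed widely between replicate numbers in both groups, and its 4 pair differences lay between 1.16 and 1.69, with a fitted difference of 1.37 ± 0.17 (adjusted p = 2.66e-05). For mt-Tq the difference was 1.09 ± 0.19 (adjusted p = 0.00232), on 7 to 179 counts per library. For mt-Tp it was 1.32 ± 0.28 (adjusted p = 0.0176), with only 2 counts in vector replicate 6 and 94 in D40A replicate 6.

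The tRNA genes of the plus strand were mostly too low to test: 3 of 14 passed the count filter (mt-Ti, mt-Tg and mt-Tl2), none was past the threshold, and their median was 0.88. The only mRNA gene of the minus strand, mt-Nd6, had 3030, 9820, 6163 and 4154 counts in D40A and 732, 1882, 12802, 4809 and 3560 in vector. It was lower in D40A in pair 8 and higher in the other pairs, with a difference of 0.86 ± 0.24 (adjusted p = 0.174).

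Of the 15 calls, mt-Tn and mt-Tc were kept when any 1 of the 9 libraries was left out, and the other 13 were each lost in at least 1 case. With the block, leaving out either library of a pair takes the information of that pair out of the difference. The 9 cases are therefore not 9 separate checks: the 2 cases of a pair gave similar differences, though not always the same call. Leaving out vector replicate 10 ended 12 calls and D40A replicate 10 ended 10. Vector replicate 8 ended 7, D40A replicates 6, 8 and 9 ended 6, 5 and 3, vector replicate 6 ended 4, and vector replicates 7 and 9 ended 1 each. The call was kept in 2 of 9 cases for mt-Atp8, in 3 for mt-Nd4 and mt-Tp, in 5 for mt-Te, mt-Nd1 and mt-Nd2, and in 6 for mt-Nd5, mt-Atp6 and mt-Tq. It was kept in 8 for mt-Ts1 and mt-Ty, which lost it only without vector replicate 10, and in 7 for Gm11651. Without D40A replicate 6 the log2 difference was 0.65 for mt-Atp8, 0.58 for mt-Nd4, 0.69 for mt-Nd1, 0.64 for mt-Nd2, 0.71 for mt-Atp6, 0.90 for mt-Nd5, 0.88 for mt-Tp and 1.20 for mt-Te, each more than 1.5 times smaller. Without vector replicate 6 it was 0.67, 0.61, 0.71, 0.66, 0.74, 0.93, 0.91 and 1.22 for the same models.

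**Figure D3:**
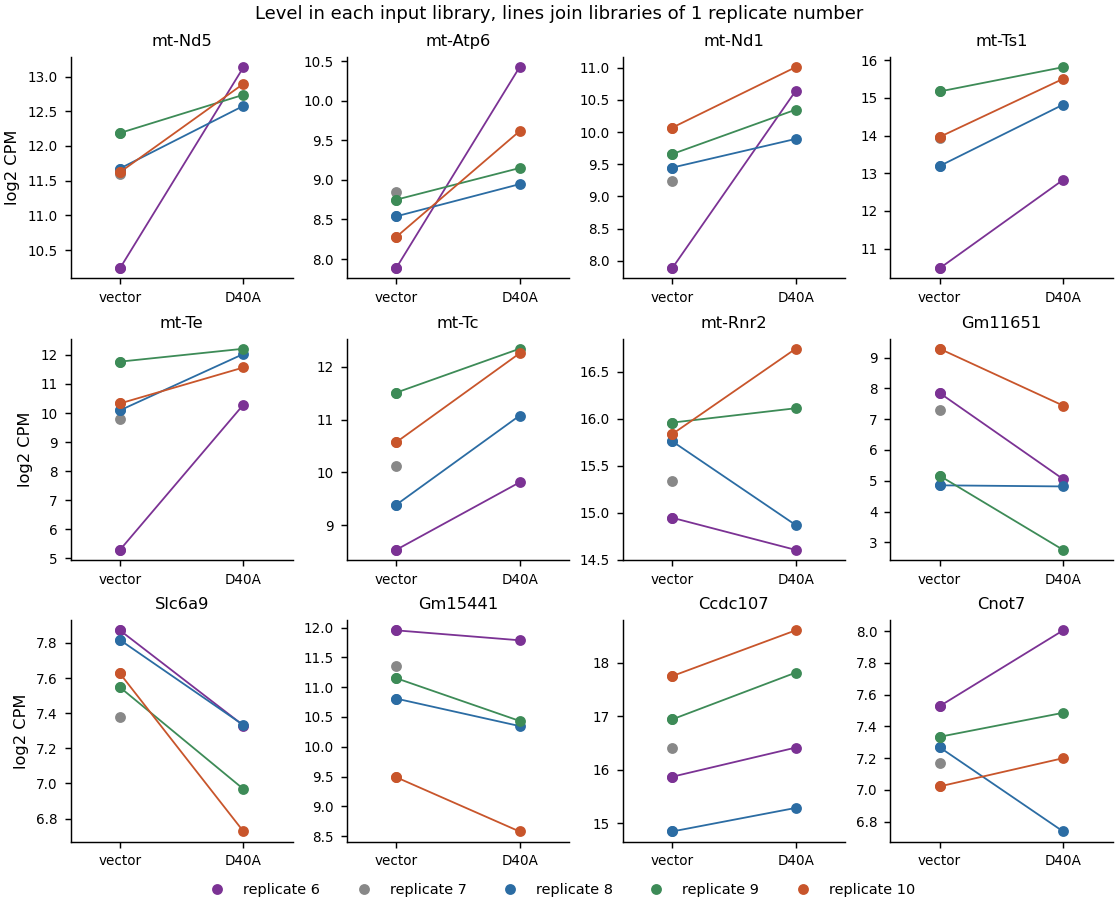
Level (log2 CPM) of 12 gene models in each vector and D40A input library; lines join the 2 libraries of a replicate number, and vector replicate 7 has no partner. The 6 mitochondrial models in the first panels rise in all 4 pairs, steepest from vector replicate 6 for mt-Nd5, mt-Nd1 and mt-Te, whereas mt-Rnr2 and Cnot7 go both ways.

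Per kilobase of gene model, the levels of the minus-strand tRNA models ranged widely, and several stood above the mRNA models of the plus strand in both lysates. The mt-Ts1 model had a level of 510014 ± 319988 CPM per kilobase in D40A and 230298 ± 191043 in vector, and mt-Ty 75594 ± 37324 and 32259 ± 23739. The lowest of them were mt-Tq, at 4049 ± 3502 and 1792 ± 1342, and mt-Ta, at 3153 ± 1848 and 1867 ± 1610. The mt-Nd5 model had a level of 4055 ± 678 CPM per kilobase in D40A and 1687 ± 675 in vector, and mt-Rnr2, the large rRNA, 37193 ± 25099 and 31672 ± 8377. A tRNA is shorter than a typical sequenced fragment, so its per-kilobase level is a rough scale. On the strand of the mRNA genes, the 14 tRNA models had levels in D40A from 54.3 ± 62.9 CPM per kilobase for mt-Td to 750 ± 940 for mt-Tm. Whether reads of the abundant plus-strand RNAs were counted under the minus-strand models was not tested.

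The rRNA models moved in both directions. The mt-Rnr2 model, the most counted of the mitochondrial genome in the sum of the 9 libraries, had 14232, 14845, 20922 and 37333 counts in D40A and 17781, 29857, 28784, 24842 and 33731 in vector, lower in pairs 6 and 8 and higher in pairs 9 and 10. For mt-Rnr1 the pair differences ran from -1.72 to 1.29. Ribosomal RNA was depleted before sequencing, and the part of that step in these values was not tested.

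Outside the mitochondrial genome 1 model rose and 1 fell. The model that rose, ENSMUSG00000082697, has no symbol and is not in the annotation used. It had 1114, 47, 63 and 27 counts in D40A and 354, 37, 19, 46 and 48 in vector, and its difference was 1.07 ± 0.21 (adjusted p = 0.00677). Replicate 6 was high in both lysates, and D40A was lower in pair 10. The call was kept in 4 of 9 cases when 1 library was left out. The difference was 0.69 without D40A replicate 6 and 0.72 without vector replicate 6, with the call lost in both. Both of these cases take out pair 6 and are not separate checks. In the anti-FLAG precipitates the same model had 63987 to 612028 counts in D40A and 120674 to 218801 in vector, and whether precipitate RNA has a part in its lysate counts was not tested.

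The model that fell, Gm11651 (ENSMUSG00000085297, GRCm38 chr11:105965608-105985694, minus strand), is an antisense RNA gene opposite to Ace, which encodes angiotensin-converting enzyme. It had 19, 14, 2 and 59 counts in D40A and 130, 113, 15, 14 and 360 in vector. Its level was 60.4 ± 76.3 CPM in D40A and 215 ± 244 CPM in vector, and the groups overlap. The log2 difference was -1.88 ± 0.28 (adjusted p = 1.31e-04), and within pairs 6, 8, 9 and 10 it was -2.66, -0.03, -1.89 and -1.82. The Ace model itself had 0 to 4 counts.

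Below the threshold, 11 models were the nearest to a lower call among those with a mean of 20 counts or more and lower in all 4 pairs, as 7.58% of all models were. None of the 11 passed the adjusted threshold, and 4 of them are antisense RNA genes, as were 544 of all 2810 models tested. Slc6a9, a glycine transporter, had 92, 80, 37 and 36 counts in D40A and 132, 120, 117, 73 and 114 in vector. Its level was 138 ± 27.4 CPM in D40A and 202 ± 27.9 CPM in vector, the groups did not overlap, and the log2 difference was -0.61 ± 0.17 (adjusted p = 0.174). Esrp2, an epithelial splicing regulator, also had groups that did not overlap, at 51.4 ± 7.63 and 84.9 ± 17.8 CPM, and a difference of -0.69 ± 0.24 (adjusted p = 0.312). Non-overlapping groups with D40A lower were found for 7 of all models (0.249%). This holds for TMM-scaled CPM: scaled by library size alone, the groups overlapped for both Slc6a9 and Esrp2.

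Gm15441, an antisense RNA gene opposite to Txnip, had 2021, 647, 409 and 130 counts in D40A and 2236, 1893, 931, 888 and 415 in vector, a difference of -0.55 ± 0.17 (adjusted p = 0.204). Txnip, which encodes the thioredoxin-interacting protein, had 0 to 4 counts. Apol7d, annotated as an antisense gene, lies opposite to the fibronectin gene Fn1. It had 866, 374, 336 and 449 counts in D40A and 1391, 1170, 483, 634 and 1156 in vector, a difference of -0.53 ± 0.16 (adjusted p = 0.204), while Fn1 had 8 to 66 counts and a difference of -0.35 ± 0.29 (0.874). The others were Gm11747 (opposite to C1qtnf1), Gm29481 (opposite to Gpc1), Rnd2, Dagla, Cd180, Tm9sf3 and ENSMUSG00000102340, with log2 differences from -0.48 to -0.99.

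The Cnot7 model was measured to see whether it marks the construct. It had 147, 53, 53 and 50 counts in D40A and 104, 104, 80, 63 and 75 in vector, levels of 173 ± 63.7 and 155 ± 20.4 CPM. The difference of the mean log2 CPM was 0.09 (exact permutation test over the 9 libraries, two-sided p = 0.738, where the smallest possible is 0.0159), and scaled by library size alone it was -0.10. The construct is a human cDNA, and how many of its reads were counted under the mouse gene is not known from the files, so Cnot7 does not check the labels. Zdhhc2, which lies opposite to Cnot7, had 577 to 1677 counts.

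Of the 12 CCR4-NOT subunits in the table, 3 had enough counts to be tested and none passed the threshold. Cnot1, the scaffold, had 7 to 20 counts per library and a difference of -0.11 ± 0.37 (adjusted p = 0.978), and Cnot3 had 4 to 15 counts and a difference of -0.17 ± 0.40 (0.963). Cnot8, the paralog of Cnot7, had at most 7 counts. Among other deadenylases 2 of 8 were tested, Toe1 at -0.29 ± 0.34 and Ccrn4l (nocturnin) at 0.01 ± 0.15. The CNOT7 adaptors and RNA-binding partners gave 2 of 25, the anti-proliferative adaptor Btg1 at -0.21 ± 0.36 and the cytoplasmic polyadenylation element binding protein Cpeb3 at -0.23 ± 0.16. None of these passed. The standard errors were largest for the models with the fewest counts, Cnot1 and Cnot3, and smallest for Ccrn4l and Cpeb3.

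The other arms of RNA decay gave the same count of calls. None passed among 1 of 14 poly(A)-binding and poly(A)-adding genes (Pabpc1, 0.09 ± 0.43), 3 of 20 decapping and decay genes, 4 of 16 exosome and Ski genes and 1 of 10 genes of nonsense-mediated decay (Smg6, -0.39 ± 0.20). Of 13 microRNA machinery genes and 44 replication-dependent histone genes none passed the filter on low counts. The AU-rich and immediate-early mRNAs, which are classical deadenylation targets, had 5 of 49 members tested, none past the threshold, and a median of -0.33. All 5 fitted values were below 0, on at most 39 counts per library, and the median over all tested models was also below 0, at -0.01. Cxcl1, a chemokine mRNA with AU-rich elements, had 14, 3, 3 and 4 counts in D40A and 21, 22, 16, 13 and 10 in vector, a difference of -1.16 ± 0.42 (adjusted p = 0.363). Cxcl5 was at -0.71 ± 0.51 (0.823), with -0.38 without D40A replicate 9 and -1.40 without D40A replicate 10, and Ptgs2 at -0.33 ± 0.38 (0.926).

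No member passed in the remaining lists, where the share of calls over all models is also under 1%. Of 50 epithelial-mesenchymal and metastasis genes 14 were tested, with a median of -0.17, and before adjustment (p under 0.05) there were 0 higher and 2 lower, Esrp2 and the repressor Zeb2 (-0.92 ± 0.39, adjusted p = 0.455). The corresponding shares over all models were 4.59% higher and 3.56% lower (129 and 100 models), and with scaling by library size alone 57 were higher and 207 lower. Zeb2 had 3 to 49 counts, and its difference was -0.60 ± 0.51 without D40A replicate 10 and -1.28 ± 0.45 without D40A replicate 9. The integrin Itgb1 was at -0.38 ± 0.20 (0.661), and at -0.12 without vector replicate 8, -0.13 without D40A replicate 8 and -0.59 with 1 or the other library of replicate 9 left out. Stress genes of the endoplasmic reticulum and amino acid responses had 8 of 31 members tested, with a median of -0.19 and 3 of the 8 above 0. The members with the smallest p-values were the chaperones Hspa5, Hsp90b1 and Hsp90aa1 at -0.37 ± 0.23, -0.36 ± 0.22 and -0.44 ± 0.27, and the highest was the disulfide isomerase Pdia3 at 0.36 ± 0.35. The chaperone values rest largely on replicate 8: without its vector library they were 0.03, -0.15 and -0.02, and without its D40A library 0.02, -0.16 and -0.03. The interferon list had 2 of 30 tested (Usp18 at -0.16 ± 0.31, B2m at -0.05 ± 0.36), the cell cycle list 4 of 35 with a median of -0.05, and the p53 and apoptosis list 2 of 21 with a median of 0.07. Of the 37 list members named by rule that missed the threshold, the mitochondrial ones aside, 31 moved by over 1.5 times or turned sign when 1 library was left out, 16 of them turning sign, so these single values are imprecise.

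Transcripts that the study itself listed were also looked up. Those whose array signal it found lower with higher Cnot7 (459 symbols) had 48 members tested, 24 of them above 0, with a median of -0.01, and those with the opposite relation (282 symbols) had 45 tested, with a median of 0.04. Of 149 transcripts it listed as both precipitated and anticorrelated, 13 were tested, 3 of them above 0, with a median of -0.06, and of 293 anticorrelated transcripts that hold its sequence motifs, 62 were tested, with a median of 0.01. No member of any of these lists passed the threshold. The list of 149 was chosen in part on libraries of this series and is not independent of them.

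Summed over the 9 libraries the most counted model was Ccdc107, which lies opposite to Rmrp, the RNA of the RNase MRP ribozyme. It held 4.28% to 28.5% of the counts of a D40A library and 3.06% to 19.6% of those of a vector library. Its counts were 49931, 19853, 68135 and 135506 in D40A and 33729, 63042, 15289, 49091 and 127118 in vector, higher in D40A in all 4 pairs, with a difference of 0.68 ± 0.20 (adjusted p = 0.204). Rmrp itself had 64 to 303 counts and a difference of 0.51 ± 0.16 (adjusted p = 0.220), and without vector replicate 6 it was past the threshold at 0.69 ± 0.17 (adjusted p = 0.0363). The next most counted, Galnt2, exceeded Ccdc107 in both libraries of replicates 6 and 8 and was at -0.10 ± 0.20. Rn7s1, an RNA gene of the signal recognition particle, had 2699, 1661, 0 and 24 counts in D40A and 3243, 1, 2344, 283 and 0 in vector and its pairs went both ways. It has near-identical copies, so its counts are uncertain. Its copy Rn7s2, with 0 to 51 counts, was high and low in the same libraries, and whether reads were split between copies was not tested.

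To see whether the mitochondrial difference was shared with other constructs, all 24 input libraries were fitted together with the replicate number as a block. With 3848 models tested, no comparison of a construct with vector had a call, D40A included (0.0%), while before adjustment (p under 0.05) D40A had 115 higher (2.99%) and 70 lower (1.82%). The same unadjusted threshold was passed by 2.23% and 2.03% of models in CNOT7, 1.87% and 1.92% in M141R and 1.98% and 1.09% in E247A/Y260A, higher and lower in turn. Over the 29 mitochondrial models tested there, the median log2 difference from vector was 1.00 for D40A, 0.56 for E247A/Y260A, 0.35 for CNOT7 and -0.00 for M141R. Before adjustment, 20 of the 29 were higher in D40A, 4 in E247A/Y260A, 1 in CNOT7 and 0 in M141R. These comparisons share the 5 vector libraries. Set directly against the CNOT7 lysate, D40A again had no call in either direction (0.0%), with 100 models higher (2.6%) and 95 lower (2.47%) before adjustment. The mitochondrial median in that comparison was 0.62, with 6 of 29 higher before adjustment and 27 of 29 above 0.

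The CPM in this paragraph are scaled over all 24 libraries and so differ somewhat from those of the 9. The summed level of the mitochondrial mRNA and tRNA models in these 24 libraries was 51939, 81983, 117368 and 92581 CPM in D40A replicates 6, 8, 9 and 10. In vector replicates 6 to 10 it was 9825, 34569, 55672, 77608 and 36909 CPM. In CNOT7 replicates 6 to 10 it was 9795, 41671, 41692, 112544 and 88060 CPM, so unaltered CNOT7 lay near vector in replicate 6, below vector in replicate 8, and well above vector and close to D40A in replicates 9 and 10. Replicate 6 was also low in M141R (10249 CPM) and not in E247A/Y260A (57185 CPM). Replicate 9 was the highest of every construct. The 2 rRNA models summed to 60692 ± 37579 CPM in D40A and 53858 ± 13336 CPM in vector. The order of the groups by the mean of the mRNA and tRNA models was D40A, CNOT7, E247A/Y260A, vector and M141R. The gap between neighbours in that order is smaller than the larger of their SDs, which takes no account of the shared numbers, and D40A was above CNOT7 in each of the 4 numbers they share.

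**Figure D4:**
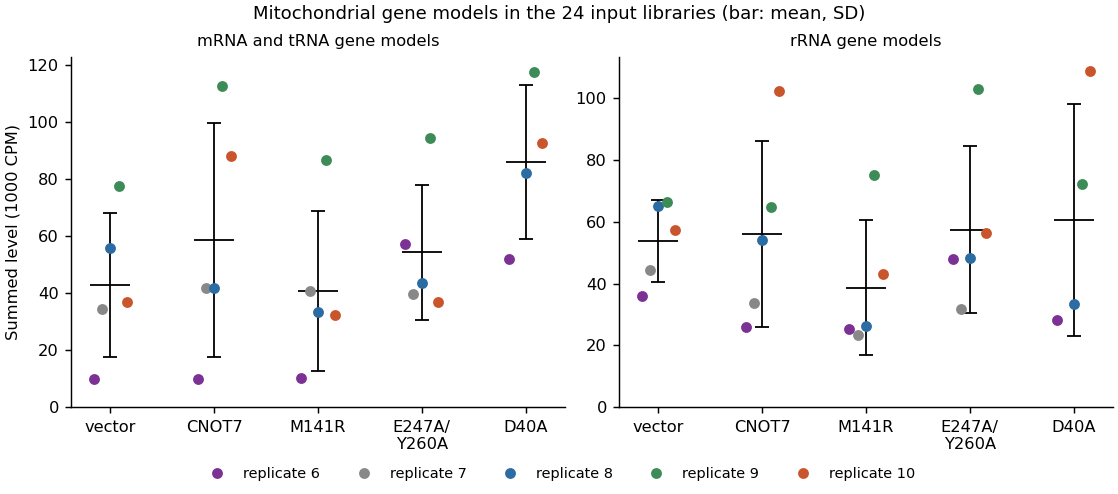
Summed level of the 34 mitochondrial mRNA and tRNA gene models (left) and the 2 rRNA models (right), in each of the 24 input libraries of 5 constructs; bars give the mean and SD and colours the replicate number. D40A has the highest mean on the left, the replicate 6 library is the lowest of the vector, CNOT7, M141R and D40A groups there, and the rRNA models overlap across groups.

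Gm11651 and ENSMUSG00000082697 differed from vector in the same direction in the other lysates. In the fit of 24 libraries Gm11651 was at -1.69 in D40A, -1.32 in CNOT7, -1.08 in E247A/Y260A and -0.85 in M141R. ENSMUSG00000082697 was at 1.09 in D40A, 1.06 in CNOT7, 1.16 in E247A/Y260A and 1.58 in M141R. None of these passed the adjusted threshold, the comparisons share the vector libraries, and D40A differed from CNOT7 by -0.36 and 0.04 for these models. Slc6a9 was at -0.54 in D40A, -0.44 in CNOT7, -0.33 in E247A/Y260A and 0.02 in M141R.

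In the anti-FLAG precipitates mitochondrial models held a far smaller share of counts than in the lysates. There a few most counted models held 96.5% to 98.3% of a D40A or vector library, against 34.5% to 56.3% in the lysates. Less was thus left for all other models, and the low share is not particular to mitochondrial ones. D40A precipitate 9 held 10719137 counts and vector precipitate 9 held 2219466. Of 890 models tested in D40A against vector precipitates by edgeR with the block, none was called in either direction (0.0%), while 58 (6.52%) and 20 (2.25%) passed upward and downward before adjustment. The 18 mitochondrial models tested there had a median log2 difference of 0.89, 17 of them were above 0 and 15 passed upward before adjustment. There mt-Rnr1 was at 1.10, mt-Rnr2 at 0.98 and mt-Ty at -0.16. The mitochondrial share of counts was 0.0304%, 0.0378%, 0.271% and 0.698% in D40A precipitates 6, 8, 9 and 10 and 0.0186%, 0.0382%, 0.0281%, 0.209% and 0.111% in vector precipitates 6 to 10. The precipitate and the lysate of a replicate number come from the same cells, so they are not independent measurements of the difference.

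**Figure D5:**
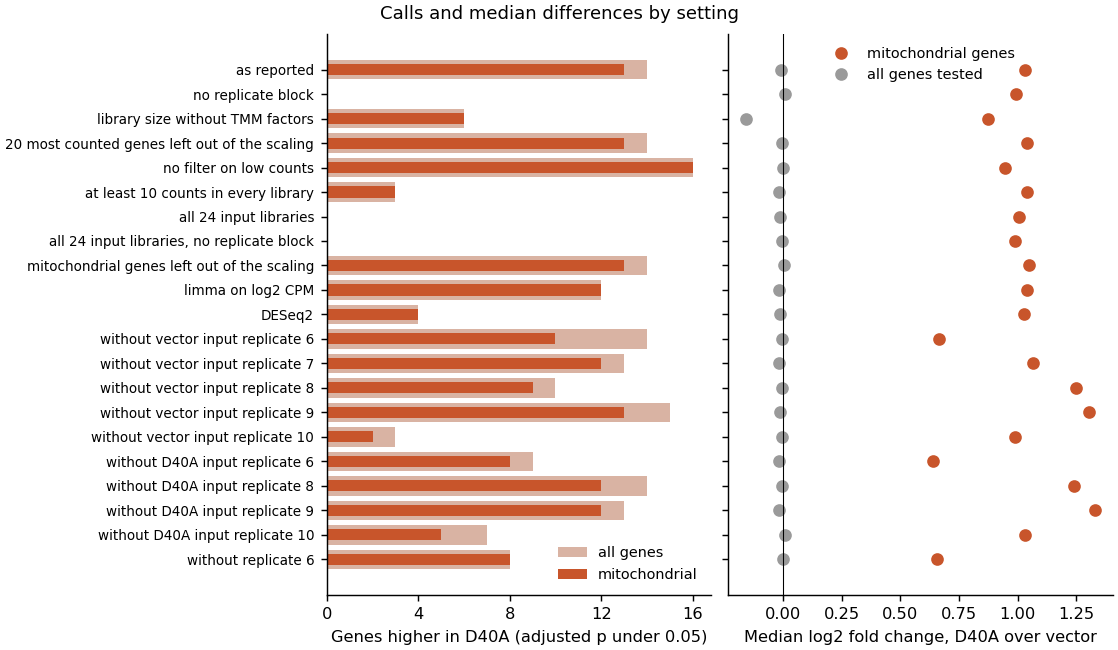
Number of gene models called higher in D40A input (left, all models and mitochondrial ones) and median log2 fold change (right, mitochondrial and all tested models) under each adjusted-threshold setting of the analysis. The median of the mitochondrial models stays between 0.64 and 1.33, whereas the number of calls runs from 0 to 16 in the settings shown.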

How the data were processed

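RNA of 24 input and 24 anti-FLAG precipitate libraries was sequenced by the authors, who deposited 1 table of raw read counts per gene model. The submitters' notes name BWA, HTSeq and mm9, with no versions. The annotation and the strand setting are not given in the sources used here. Of 26899 identifiers 26555 were found in GENCODE M21 (GRCm38), the source of positions, strands and missing symbols. Counts were analysed with edgeR 4.0.16 in R 4.3.3 (filterByExpr, TMM scaling, quasi-likelihood test, Benjamini-Hochberg adjustment, threshold 0.05), with replicate number as a block. Deviations from the group means of same-numbered libraries correlated at 0.510 to 0.839 in all 4 pairs. CPM are TMM-scaled, and differences within pairs are of log2 CPM with a prior count of 2. DESeq2 1.42.0, limma 3.58.1 and other settings were alternatives, and the code was tested on simulated data.

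Members and lists were chosen with earlier results of these data known. Named genes were the CCR4-NOT subunits, up to 12 models per direction past the threshold by size and, to fill 12, those nearest to it with a mean of 20 counts or more, always with 1 sign in all 4 pairs, up to 3 per list, and the 3 most counted models. The other mitochondrial models, ENSMUSG00000082697 and the genes with opposite-strand counts were added after their values were seen.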

Additional observations from a re-analysis of the deposited data

Results flagged for a closer look

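In 166 groups of 4 or 5 libraries (log2 CPM of the named models and of mitochondrial sums, and the log2 total count), 8 had 1 library set apart from the rest by most of the group's range. Chance sets apart about 1 in 20 such groups. In D40A replicate 6, mt-Nd4 was at 11.96 on the log2 CPM scale against 10.62 to 10.81 in the other D40A libraries, and Rnd2 at 8.16 against 6.67 to 6.82. In vector replicate 6, Cd180 was high at 9.59 against 8.30 to 8.43 and Tm9sf3 low at 5.60 against 6.14 to 6.30. The summed plus-strand mitochondrial models without the 2 rRNA genes were low in the same library, at 12.36 against 13.43 to 13.86. In vector replicate 10, Cxcl1 was low at 4.42 against 5.11 to 5.37 and Itgb1 low at 6.50 against 7.46 to 7.83. In D40A replicate 10, Hsp90b1 was high at 7.03 against 6.30 to 6.41. The causes were not tested.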

How the results depend on the processing

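The count of calls depended on the setting, and the sign of the mitochondrial median did not. Of 14 models higher, 1 lower and 13 mitochondrial models higher, no replicate block left 0, 0 and 0 (dispersion 0.220 against 0.0294 with the block). All 24 input libraries, with or without the block, also left 0, 0 and 0. Scaling by library size gave 6 higher and 6 mitochondrial, with 57 higher and 207 lower before adjustment, the median of all models at -0.16 and of the mitochondrial models at 0.88. At least 10 counts in every library gave 3, 0 and 3, and DESeq2 4 higher, 4 of them mitochondrial. A per-gene test gave 21 higher, 25 lower and 7 mitochondrial before adjustment, and none after it (lowest adjusted p = 0.999). Without replicate 6 there were 8 higher and 8 mitochondrial. Leaving out 1 library in turn gave 3 to 15 higher, 0 to 1 lower (0 without D40A or vector replicate 10) and 2 to 13 mitochondrial, with a mitochondrial median from 0.64 to 1.33. Leaving the mitochondrial models out of the scaling, an alternative chosen after seeing the data, gave 14 higher, 1 lower and 13 mitochondrial. For D40A against CNOT7 input and for the precipitates there were no calls with or without the block. The Cnot7 difference ran from -0.12 to 0.30 and no exact p was past the threshold. Lists with no tested member at 10 counts in every library gave no median there. The causes of these changes were not tested. With 386854 to 647077 counts per library, and a few models holding much of them, 2810 models passed the filter on low counts, and most genes of the lists did not. With no filter on low counts 21104 models were tested, with 16 higher, all of them mitochondrial, and 1 lower.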
